A study of Sisymbrium orientale with 12 samples.

Results

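Among 33277 assembled leaf transcripts of Sisymbrium orientale (Indian hedge mustard, a weed of the Arabidopsis family), the contigs described here were read in every line of 1 of 2 crosses and were near zero in every line of the other. A contig is a transcript put together from overlapping reads. A contig counted as on in a cross with at least 1 CPM in all 6 lines and as off with under 0.2 CPM in all 6 lines, CPM being reads scaled by the authors to a library size of about 1000000. By this rule 0 contigs (0% of the table) were on in cross B and off in cross A, and 27 contigs (0.0811%) were on in cross A and off in cross B. The 27 contigs carried the identifiers of 17 Arabidopsis loci, their closest match in the authors' annotation. The contigs were chosen by their CPM in the 12 lines, which are the values of the comparison of crosses, so that comparison is described here and not tested.

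Leaf RNA came from 12 untreated lines, in each case from the youngest fully expanded leaf. Cross B, at generation F3, was made up of RP6 and RP8, which resist 2,4-D, and 4 lines that do not (SP3, SP7, SP9 and SRP1). Cross A, at generation F4, was made up of R202, R206 and R221, which resist 2,4-D, and of the susceptible S205, S207 and S242. The herbicide 2,4-D mimics the plant hormone auxin, and none of these plants had been sprayed. Cross and generation cannot be told apart in this design. How many plants made up each sample is not in the labels, so the spread given below is that between libraries, which may be technical in part.

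The libraries held 100976475 to 145936928 reads on contigs, R206 being the smallest. At that depth 0.2 CPM stood for 20.0 to 30.6 reads and 1 CPM in cross A for 100.2 to 147.1 reads. The leaf label fitted its markers, with RBCS1A, the Rubisco small subunit, at 21074 to 36054 CPM in cross B and 20593 to 48880 CPM in cross A, where S205 was the highest line. Of 4 flower markers only PISTILLATA was measured, at 0.9 to 2.24 CPM in cross B and 1.45 to 3.31 CPM in cross A, and none of the 3 root markers had a contig in the table. The 4 contigs of IAA2, the gene in the series title, were not among the 27, since their lowest value in any line was 2.18 CPM.

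Several of the 17 loci belong to plant immunity. TIR-NBS-LRR proteins are receptors inside the cell that bind traces of pathogens through leucine-rich repeats and start defence through their TIR domain. SAG101, a lipase-like protein, works with EDS1 to pass on the signal of such receptors in Arabidopsis. Other loci of the set encode a chloroplast protein, enzymes, receptor kinases of the cell surface and proteins of unknown function.

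The 27 contigs were fully apart between the crosses in level, as the rule requires. In cross B lines, reads on any of them ranged from 0 to 29 per line, and 4 contigs had 0 reads in all 6 lines, which allows each of these up to 0.0196 to 0.0254 CPM in a cross B line, the worth of 3 reads there. In cross A lines the smallest value was 109 reads. A total of 8 contigs had at most 3 reads over all 6 cross B lines together, against at least 1210 reads over the 6 cross A lines for every member. Summed over the 27 contigs, the level was 0.78 to 1.2 CPM in cross B lines and 169.57 to 217.42 CPM in cross A lines.

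**Figure D1:**
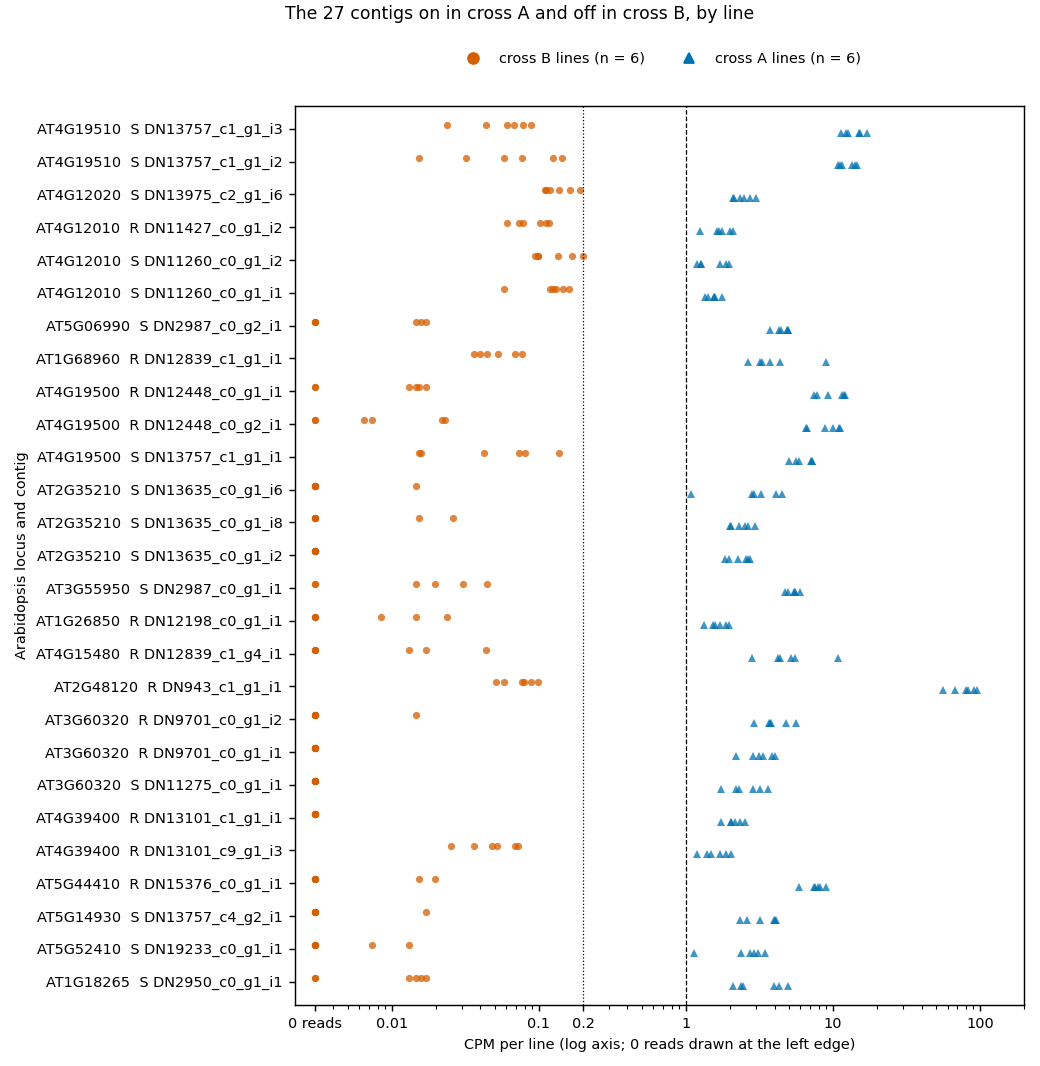
Level of the 27 contigs (rows, with their Arabidopsis locus) in CPM on a log axis, with 1 circle for each of the 6 cross B lines and 1 triangle for each of the 6 cross A lines; values of 0 are drawn at the left edge, and the dotted and dashed lines stand at 0.2 and 1 CPM. The cross B lines lie at 0 to 0.198 CPM and the cross A lines at 1.09 to 95.3 CPM, with the PALE CRESS contig farthest to the right.

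The count ran in 1 direction and depended on R206. Without R206 the rule took 88 contigs of 49 loci in cross A and 1 contig in cross B. All 61 contigs added in cross A were under 0.2 CPM in R206, where the highest stood at 0.07 CPM and 38 had 0 reads, and none was at a locus of the 27. Leaving out a line can only add contigs, since the rule asks for every line to pass. Without S205 the count was 40, and without any other line it was 27 to 35.

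The table held few contigs that were near zero throughout cross A. Under 0.2 CPM in all 6 lines were 294 contigs in cross B and 4 contigs in cross A. With 0 reads in all 6 lines there were 71 contigs in cross B and 0 in cross A. At 1 CPM or more in all 6 lines the numbers were closer, with 27645 contigs in cross B and 26998 in cross A. On group means, 17 of 30478 contigs with at least 1 CPM in cross B averaged under 0.1 times that level in cross A. In the other direction, 252 of 30876 contigs (0.816%) with at least 1 CPM in cross A averaged under 0.1 times that level in cross B, and 225 of these were not among the 27. The part that the choice of contigs for the table had in these unequal numbers was not tested.

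**Figure D2:**
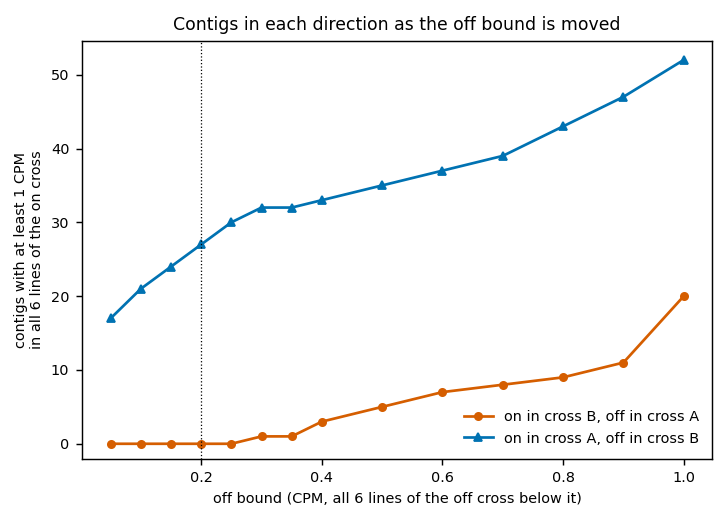
Number of contigs with at least 1 CPM in all 6 lines of the on cross, by the bound (CPM) below which all 6 lines of the other cross had to stay; circles count contigs on in cross B and triangles contigs on in cross A. At 0.2 CPM (dotted line) there are 0 and 27 contigs, at 0.5 CPM 5 and 35, and at 1 CPM 20 and 52.

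The contigs just inside the bound for on were S_TRINITY_DN13635_c0_g1_i6 of AT2G35210, with a lowest cross A value of 1.09 CPM, and S_TRINITY_DN19233_c0_g1_i1 of AT5G52410, with 1.14 CPM. Just outside it were S_TRINITY_DN13757_c3_g1_i5 of AT5G14930 and S_TRINITY_DN13635_c0_g1_i12 of the protein kinase locus AT5G07620, both with a lowest value of 0.984 CPM. Just inside the bound for off were S_TRINITY_DN11260_c0_g1_i2 of AT4G12010 and S_TRINITY_DN13975_c2_g1_i6 of AT4G12020, with highest cross B values of 0.198 and 0.19 CPM. Just outside it were S_TRINITY_DN11260_c0_g1_i4 and S_TRINITY_DN11260_c0_g1_i3 of AT4G12010, with 0.221 and 0.222 CPM. In the direction with no member, the nearest contig by the bound for off belonged to AT1G53580 (glyoxalase II 3), with a lowest cross B value of 1.29 CPM and a highest cross A value of 0.299 CPM. Next was AT4G11650 (osmotin 34, a pathogenesis-related protein), at 1.21 and 0.381 CPM.

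The 27 contigs were spread over both assemblies. The names mark 2 Trinity assemblies, R and S, and 12 of the contigs came from R (0.0966% of its 12416 contigs) and 15 from S (0.0719% of its 20861 contigs). R contigs thus made up 44.4% of the members and 37.3% of the table. Both assemblies gave members at 3 loci, AT3G60320, AT4G12010 and AT4G19500. The names also give a number after DN, called the component here. The number after c, by which the names split a component further, was left out. The 27 contigs fell into 16 components and 17 loci, so they are not 27 separate observations.

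Arabidopsis chromosome 4 held 12 of the 27 contigs (44.4%), against 15.6% of all contigs, and 6 of the 17 loci (35.3%), against 15.4% of all loci. Chromosome 1 held 3 contigs (11.1%, against 26.6% of all contigs), and chromosomes 2, 3 and 5 held 4 contigs each (14.8%, against 14.9%, 19.7% and 23.0%). These are shares by the Arabidopsis locus, and the order of genes in Sisymbrium need not be the same. Of the 12 contigs of chromosome 4, 9 sat at 4 loci in 2 neighbouring pairs. The members were of ordinary length, with a median of 1584 bases (638 to 6186) against 1546 bases over the table. Per length their level in cross A had a median of 2.25 CPM per kb, against 3.82 CPM per kb over all contigs. Unlike the members, the set of all contigs was not held to at least 1 CPM in every cross A line.

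The largest group was that of TIR-NBS-LRR receptors. By the wording of the annotation, 5 of the 276 contigs of the NBS-LRR class (1.81%) were members, which is 18.5% of the members against 0.829% of the table for the class. These 5 contigs belong to 2 of the 81 loci of the class, and members in all to 17 of 16386 loci. AT4G19500 and AT4G12020 have other wording but are known in Arabidopsis as TIR-NBS-LRR genes, and with them the group held 9 members (33.3%). This addition was made after their values were seen. The share of 0.829% does not cover the added loci, so no share of the table stands beside the 33.3%. These 4 loci had 8 further contigs, of which 5 averaged under 0.1 times their cross A level in cross B. The loci were picked for their members, so nothing is read from that count.

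AT4G19500 and AT4G19510, neighbours in Arabidopsis, are known there as RPP2A and RPP2B, which are both needed for resistance to a strain of downy mildew. AT4G19510 had 2 contigs in the table and both were members. In cross B lines, S_TRINITY_DN13757_c1_g1_i3, the longest member, had a lowest, median and highest value of 0.0239, 0.0644 and 0.0882 CPM, against 11.4, 13.8 and 17.01 CPM in cross A lines. S_TRINITY_DN13757_c1_g1_i2 had 0.0153, 0.0673 and 0.144 CPM in cross B lines, against 10.8, 12.5 and 14.5 CPM in cross A lines. The sum of the locus was 0.136 ± 0.07 CPM in cross B and 26.5 ± 3.74 CPM in cross A (SD, n = 6 each), 0.005 times as much in cross B. No contig of this locus kept a level in cross B.

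AT4G19500 had 6 contigs, of which 3 were members. R_TRINITY_DN12448_c0_g1_i1 had 0 to 2 reads in cross B lines, at a median of 0.0138 CPM, against 7.38, 10.4 and 11.98 CPM (lowest, median and highest) in cross A lines. R_TRINITY_DN12448_c0_g2_i1 had 0 to 3 reads in cross B lines, against 6.596, 9.34 and 11.1 CPM in cross A lines. S_TRINITY_DN13757_c1_g1_i1 had 0.0153, 0.0579 and 0.137 CPM in cross B lines, against 5.01, 6.48 and 7.20 CPM in cross A lines. The other 3 contigs of the locus, all of component S_TRINITY_DN13111, were read in both crosses, with a sum of 21.9 ± 6.63 CPM in cross B and 26.7 ± 4.12 CPM in cross A (SD, n = 6 each), and their ranges overlapped. The whole locus therefore stood at 0.422 times its cross A level in cross B, with 12.4 to 29.3 CPM in cross B lines and 40.6 to 61.9 CPM in cross A lines.

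The second pair, AT4G12010 and AT4G12020, consists in Arabidopsis of a TIR-NBS-LRR gene known as DSC1 and its neighbour WRKY19, whose product joins receptor, WRKY and kinase domains. AT4G12010 had 5 contigs, of which 3 were members. R_TRINITY_DN11427_c0_g1_i2 had 0.061, 0.0901 and 0.118 CPM in cross B lines, against 1.25, 1.72 and 2.09 CPM in cross A lines. S_TRINITY_DN11260_c0_g1_i2 had 0.117 CPM and S_TRINITY_DN11260_c0_g1_i1 0.128 CPM as the median of cross B lines, against 1.48 and 1.55 CPM as the median of cross A lines. The other 2 contigs of this locus missed the rule by the bound for off alone, and the sum over all 5 was 0.641 ± 0.102 CPM in cross B and 7.98 ± 0.851 CPM in cross A (SD, n = 6 each). The low level was shared by every contig of the locus.

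AT4G12020 had 1 member among 4 contigs. S_TRINITY_DN13975_c2_g1_i6 had 0.109, 0.128 and 0.19 CPM in cross B lines, against 2.10, 2.42 and 3.01 CPM in cross A lines. The other 3 contigs, from both assemblies, reached up to 0.25, 0.287 and 0.36 CPM in cross B lines and at least 2.30 CPM in cross A lines, so they too missed only the bound for off. Over the locus the sum was 0.701 ± 0.189 CPM in cross B and 12.8 ± 2.57 CPM in cross A (SD, n = 6 each), 0.055 times as much in cross B. At both loci of this pair the cross B reads were few but never 0, with 8 to 29 reads per line on each member.

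Neighbouring genes did not share the low level. The 5 nearest measured loci on each side of AT4G12010 and AT4G12020 stood at 0.67 to 1.79 times their cross A level in cross B. For AT4G19500 and AT4G19510 the range was 0.71 to 1.93 times. The highest of these ratios was that of AT4G19520, also annotated as a TIR-NBS-LRR gene, at 9.80 ± 3.92 CPM in cross B and 5.07 ± 1.46 CPM in cross A (SD, n = 6 each). AT4G19530, a further gene of that class, stood at 3.31 ± 0.45 and 4.32 ± 1.37 CPM in the same order.

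**Figure D3:**
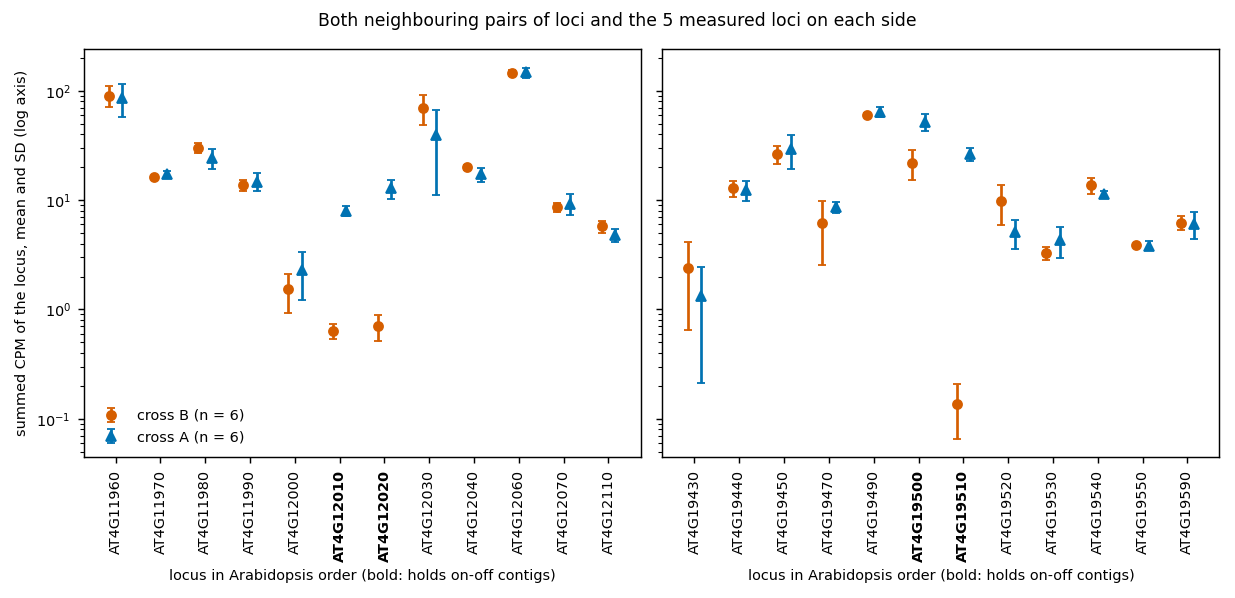
Summed CPM of each locus (log axis; mean and SD of 6 lines, circles for cross B and triangles for cross A) for both pairs of neighbouring loci (bold) and the 5 measured loci on each side in Arabidopsis order. Cross B lies far below cross A at AT4G12010, AT4G12020 and AT4G19510, at 0.422 times at AT4G19500, and between 0.67 and 1.93 times at the other loci.

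SAG101 (AT5G14930) had 1 member among 10 contigs. S_TRINITY_DN13757_c4_g2_i1 had reads in 1 of 6 cross B lines, 2 in SP9, against 2.35, 3.58 and 4.08 CPM in cross A lines. Its component number is that of the S-assembly RPP2-like contigs, but the number after c differs. A further 3 contigs of the SAG101 locus had at most 0.013 CPM in any cross B line and between 0.734 and 2.28 CPM in cross A lines. The one from the R assembly shares its component number, though not the number after c, with R contigs of AT4G19500. The remaining contigs carried most of the locus, whose sum was 36.9 ± 5.67 CPM in cross B and 46.2 ± 4.63 CPM in cross A (SD, n = 6 each), and the crosses overlapped.

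The 6 members of the RPP2-like and SAG101-like components had the same low lines in cross A. In all 6 the lines R206, S205 and S207 were the 3 lowest and R202, R221 and S242 the 3 highest. The same split was found in 3 other members, R_TRINITY_DN11427_c0_g1_i2 and S_TRINITY_DN11260_c0_g1_i2 of AT4G12010 and R_TRINITY_DN15376_c0_g1_i1 of AT5G44410, and in 9.51% of the 26998 contigs with at least 1 CPM in every cross A line. The 3 low lines had the highest column sums of cross A, 1007269 to 1180044 against 915639 to 935691. With every column rescaled to 1000000, a comparison added after seeing the data, the split held for 10 members and for 24% of those contigs. The members of component S_TRINITY_DN2987, annotated to the receptor kinase CCR3 (AT3G55950) and to AT5G06990, a protein of unknown function (DUF617), had a coefficient of variation of 8.4% and 10.8% over the 6 lines, of which the first was the lowest of all members. Over all 27 contigs the median was 18.8%, against 17.3% over the 26998 contigs with at least 1 CPM in every cross A line.

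**Figure D4:**
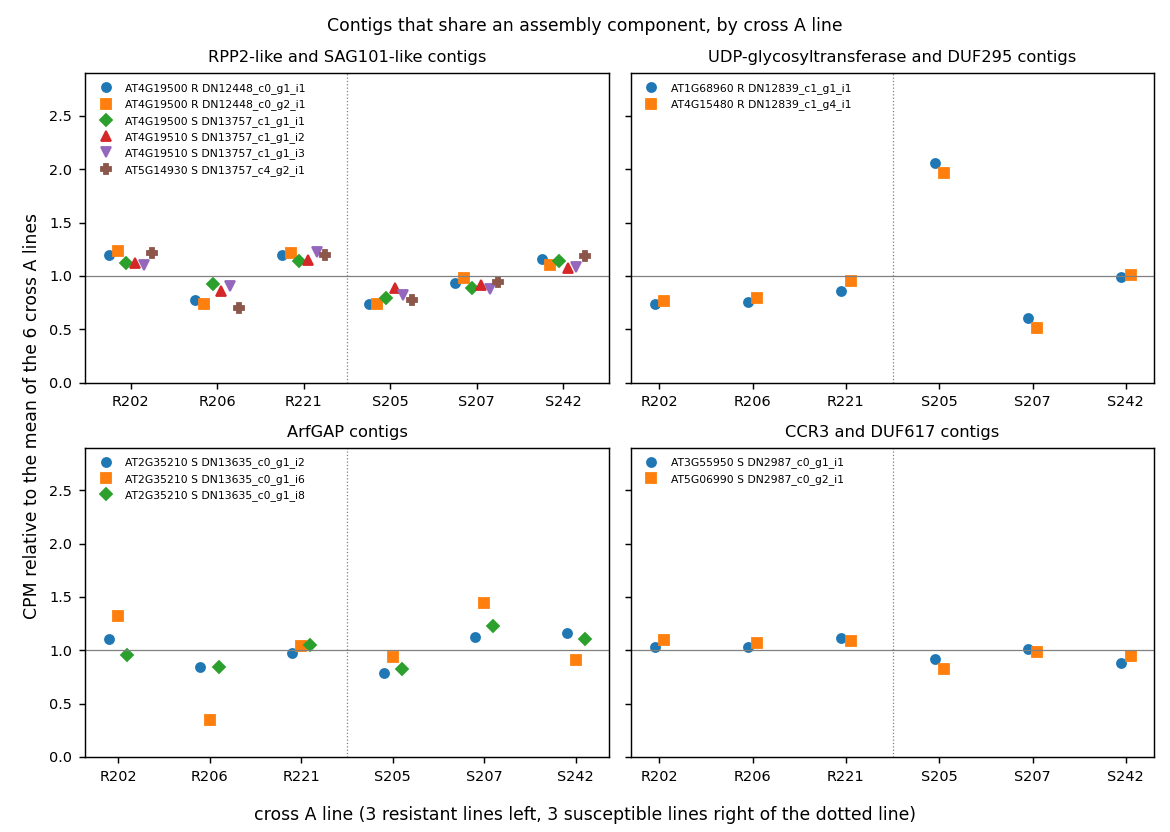
Level of members in each cross A line relative to the mean of the 6 lines, for 4 groups of contigs that share component numbers; the dotted line parts the 3 resistant from the 3 susceptible lines. The RPP2-like and SAG101-like contigs are below their mean in R206, S205 and S207, and both contigs of component R_TRINITY_DN12839 are highest in S205, at 1.97 and 2.06 times their mean.

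The contig with the highest level belonged to PALE CRESS (AT2G48120), a chloroplast protein without which Arabidopsis leaves stay pale. R_TRINITY_DN943_c1_g1_i1 had 0.0509, 0.078 and 0.098 CPM in cross B lines, or 6 to 15 reads, against 56.0, 81.4 and 95.3 CPM in cross A lines. Per length this was 65.5 CPM per kb in cross A, the highest of the members. The S-assembly contig of the same gene was read in all lines, at 100 ± 13 CPM in cross B and 84.9 ± 30.6 CPM in cross A (SD, n = 6 each), with overlapping ranges. Summed, PALE CRESS stood at 100.6 ± 13 CPM in cross B and 164 ± 41.7 CPM in cross A, 0.614 times as much in cross B. So cross A had reads on both contigs, and cross B had them on the S contig.

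AT2G35210, annotated as an ArfGAP of root and pollen, a regulator of the small GTPases that drive vesicle traffic, had 3 members among 4 contigs. In cross B lines, S_TRINITY_DN13635_c0_g1_i2 had 0 reads and the other 2 had 0 to 4 reads. In cross A lines, S_TRINITY_DN13635_c0_g1_i6 had 1.09, 3.07 and 4.47 CPM, with R206 the lowest, and S_TRINITY_DN13635_c0_g1_i8 had 1.99, 2.40 and 2.95 CPM. S_TRINITY_DN13635_c0_g1_i2 had 1.83, 2.43 and 2.71 CPM there. The R contig of the locus stood at 6.54 ± 0.923 CPM in cross B and 5.62 ± 0.848 CPM in cross A (SD, n = 6 each), so the sum was 0.486 times its cross A level in cross B, without overlap.

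CCR3, a relative of the CRINKLY4 receptor kinase, had 1 member of 2 contigs. S_TRINITY_DN2987_c0_g1_i1 had 0, 0.0171 and 0.0441 CPM in cross B lines, against 4.72, 5.45 and 5.94 CPM in cross A lines. The R contig stood at 2.86 ± 0.442 CPM in cross B and 3.05 ± 0.612 CPM in cross A (SD, n = 6 each). The locus was thus at 0.343 times its cross A sum in cross B. AT5G06990, of the same component, had no other contig, and S_TRINITY_DN2987_c0_g2_i1 had 0, 0.0073 and 0.017 CPM in cross B lines, against 3.71, 4.64 and 4.97 CPM in cross A lines.

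AT4G15480, a UDP-glycosyltransferase that is known in Arabidopsis to join glucose to hydroxycinnamic acids, had 1 member of 4 contigs. R_TRINITY_DN12839_c1_g4_i1 had 0, 0.0065 and 0.0437 CPM in cross B lines, against 2.82, 4.79 and 10.8 CPM in cross A lines. It made up 3.1% of the locus in cross A, whose sum was 133 ± 16.4 CPM in cross B and 177 ± 48.0 CPM in cross A (SD, n = 6 each). Of the same component was R_TRINITY_DN12839_c1_g1_i1, the only contig of AT1G68960 (unknown function, DUF295), with 0.0364, 0.0482 and 0.0763 CPM in cross B lines and 2.64, 3.51 and 8.99 CPM in cross A lines. Both were highest in S205 and lowest in S207.

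AT3G60320 (DUF630 and DUF632), known in Arabidopsis as the nitrate signalling gene NRG2, had 3 members among 14 contigs. R_TRINITY_DN9701_c0_g1_i1 and S_TRINITY_DN11275_c0_g1_i1 had 0 reads in all cross B lines and averaged 3.23 and 2.64 CPM in cross A, and R_TRINITY_DN9701_c0_g1_i2 had reads in 1 cross B line and averaged 4.07 CPM in cross A. Together they were 6.7% of the locus in cross A, whose sum was 136 ± 3.61 CPM in cross B and 148 ± 12.7 CPM in cross A (SD, n = 6 each). The members came from 2 assemblies and were of like length, 1530, 1532 and 1620 bases.

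AT4G39400, in Arabidopsis the brassinosteroid receptor BRI1, had 2 members among 4 contigs. R_TRINITY_DN13101_c1_g1_i1 had 0 reads in all cross B lines, against 1.73, 2.10 and 2.51 CPM in cross A lines. R_TRINITY_DN13101_c9_g1_i3 had 0.0254, 0.0496 and 0.0719 CPM in cross B lines, against 1.18, 1.60 and 2.01 CPM in cross A lines. The sums of the locus overlapped, at 76.9 ± 7.45 CPM in cross B and 80.3 ± 10.5 CPM in cross A (SD, n = 6 each), of which R_TRINITY_DN13101_c9_g1_i4 held 74.6 CPM in cross B and 72.3 CPM in cross A. A contig of the S assembly, S_TRINITY_DN13824_c2_g1_i1, did not overlap either, with 1.88 to 2.63 CPM in cross B lines and 3.96 to 4.97 CPM in cross A lines.

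A member each was found at AT5G44410, AT1G18265, AT5G52410 and AT1G26850. R_TRINITY_DN15376_c0_g1_i1 of AT5G44410, a FAD-binding enzyme of the berberine family, had reads in 2 cross B lines (2 and 3 reads), against 5.84, 7.71 and 8.89 CPM in cross A lines. S_TRINITY_DN2950_c0_g1_i1 of AT1G18265 (DUF593) had at most 2 reads in a cross B line, against 2.10, 3.21 and 4.97 CPM in cross A lines. S_TRINITY_DN19233_c0_g1_i1 of AT5G52410, annotated as located in the chloroplast, had at most 2 reads in a cross B line as well, against 1.14, 2.81 and 3.47 CPM in cross A lines. R_TRINITY_DN12198_c0_g1_i1 of the methyltransferase AT1G26850 had at most 3 reads in a cross B line, against 1.32, 1.64 and 1.97 CPM in cross A lines. All 4 loci kept over 0.5 times their cross A sum in cross B, at 0.964, 0.592, 1.13 and 1.09 times. The members made up 15.4%, 20.7%, 8.0% and 0.8% of the cross A sum in that order. Their absence alone could not bring a sum under 0.5 times.

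Seen by locus, the summed level in cross B stayed above 0.5 times its cross A value at 9 of the 17 loci, between 0.1 and 0.5 times at 3 (AT4G19500, AT2G35210 and AT3G55950) and under 0.1 times at 5 (AT4G19510, AT4G12020, AT4G12010, AT5G06990 and AT1G68960). Of the 5, AT5G06990 and AT1G68960 had no contig but the member. These groups held 12, 7 and 8 of the 27 contigs. At the 9 loci the members made up 0.8% to 48.1% of the cross A sum, so their absence alone could not bring a sum under 0.5 times. The median ratio of the 15 loci with at least 2 contigs was 0.61, against 0.99 over the 7500 such loci with at least 1 CPM in cross A. Of those 7500 loci, 7408 (98.8%) kept over 0.5 times their level and 18 were under 0.1 times. Over loci of any number of contigs, 40 of 15989 (0.25%) were under 0.1 times in cross B. The members lower the sums by the way they were chosen, so nothing is read from the difference.

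No locus had a contig that was on in cross B and off in cross A. The sums of 8 of the 17 loci were lower in every cross B line than in every cross A line (1.05% of all loci), 0 were higher in every cross B line (1.07% of all loci), and 9 overlapped. Of the 41 other contigs at these loci, 10 were lower in every cross B line (1.33% of all contigs) and 9 of the 10 averaged under 0.1 times their cross A level. R_TRINITY_DN4810_c0_g2_i1 of AT5G52410 was the 1 contig higher in every cross B line (1.08% of all contigs), at 34.8 to 38.7 CPM in cross B lines and 24.0 to 33.4 CPM in cross A lines. The other 30 overlapped. These are descriptions, since contigs of a locus can share reads and the contrast is that of the rule. No sequence of a contig was analysed here, so a change in the amount of a transcript and a change in its sequence cannot be told apart, nor can fewer cells of a type and less RNA per cell.

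**Figure D5:**
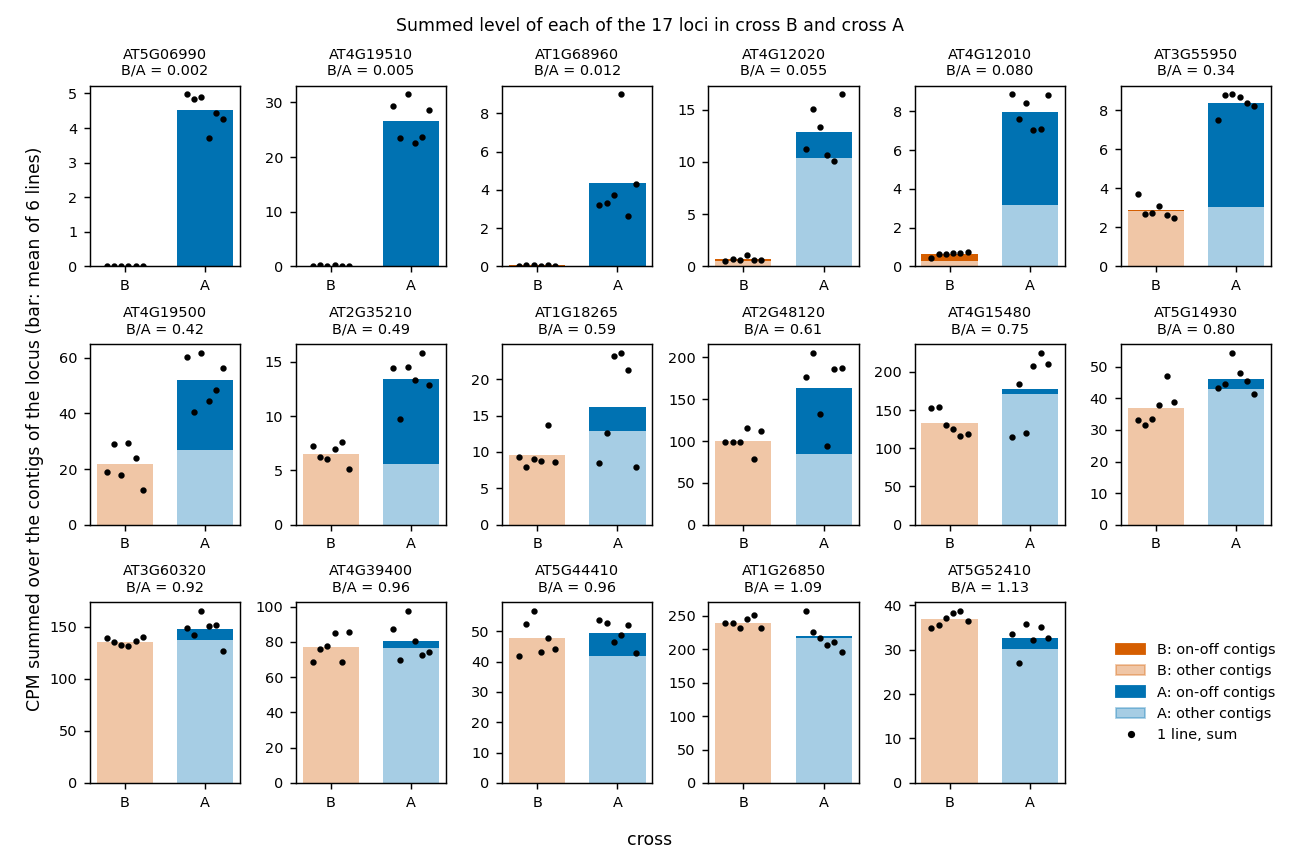
CPM summed over the contigs of each of the 17 loci, with the mean of 6 lines as bars (cross B left, cross A right), on-off contigs in full colour above other contigs in pale colour, and each line's sum as a point. The loci run from AT5G06990, at 0.002 times its cross A sum in cross B, to AT5G52410, at 1.13 times.

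Members made up 0.0811% of all contigs, and for most of the classes below, 0 members is about what that share gives. By the wording of the annotation, receptor-like kinases and lectins had 2 of 677 contigs (0.295%), both of BRI1, and UDP-glycosyltransferases 1 of 163 (0.613%). CCR3 is a receptor kinase too, but its wording is not caught by that class. With 0 members were F-box proteins (298 contigs), cytochromes P450, glutathione S-transferases (64), ABC transporters (109) and the genes of glucosinolates, myrosinases and specifier proteins (60). The same held for pentatricopeptide and tetratricopeptide repeat proteins, transcription factors (1489), ribosomal proteins (509), heat shock proteins and chaperones (423), proteases and their inhibitors (650), helicases and transposon-related genes (369), defensins and pathogenesis-related proteins (53) and photosynthesis genes (147).

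The 27 contigs were also set between resistant and susceptible lines of cross A. The rule does not use the phenotype, but it asks for at least 1 CPM in every line of both groups, so contigs near zero in either group could not be members. Of 32142 contigs tested on the 6 cross A lines, 0 (0%) passed an adjusted p of 0.05 by limma, while 884 (2.75%) had an unadjusted p under 0.05. Without R221 limma called 59 contigs and without S205 36, and no member was among them. Of the 27 members 0 were called and 0 had an unadjusted p under 0.05, also by edgeR and DESeq2, which called 0 and 65 of all contigs (865 and 1369 at an unadjusted p under 0.05). Resistant lines were on the higher side for 14 members and on the lower side for 13. The log2 differences ran from -0.51 to 0.25, with a median of 0.07 against 0.00 over all contigs tested.

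The 3 members with the smallest p show the size of these differences. S_TRINITY_DN2987_c0_g2_i1 of AT5G06990 averaged 4.91 ± 0.068 CPM over the resistant lines and 4.14 ± 0.38 CPM over the susceptible ones (SD, n = 3 each), which differ by 0.23 in log2 with an SE of 0.12 (adjusted p = 0.903 by limma). S_TRINITY_DN19233_c0_g1_i1 of AT5G52410 stood at 2.13 ± 0.905 and 3.09 ± 0.374 CPM in the same order (-0.51 in log2 with an SE of 0.29, adjusted p = 0.903 by limma). R_TRINITY_DN11427_c0_g1_i2 of AT4G12010 stood at 1.92 ± 0.219 and 1.54 ± 0.263 CPM (0.25 in log2 with an SE of 0.17, adjusted p = 0.903 by limma). None of these differences passed the test. No such test could be made in cross B, where no contig met the rule. The authors' deposited table of all resistant against all susceptible lines lists 277 contigs, few beside the 33277 contigs with values. It holds 0 of the 27 members and 0 of the 41 other contigs of their loci, about what so small a share gives. Each member was near zero in the cross B lines of both phenotypes, which widens its spread within each phenotype. Nothing is therefore read from these counts.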

How the data were processed

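Strand-specific libraries of leaf RNA from 12 lines were made with a TruSeq mRNA kit, per the labels' protocols. The submitters' processing notes name Bowtie2, SAMtools 1.3.1, edgeR, R 3.3 and TAIR10; the sources used here do not give their roles or how reads that match several contigs were counted. The deposited values are a normalized signal, CPM on a scaled library size: columns sum to 915639 to 1180044. The steps of each column gave whole reads for 100% of values within 0.1 read (R206 included), 100976475 to 145936928 per library. The authors' deposited comparison gives log2 fold changes and p-values, of which only the list of contigs was used. Of 40987 annotated contigs, 7710 had no value and were left out. Contig lengths came from the annotation.

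Members were found by the rule in the text, and all 27 are named. The rule, lists and gene classes were chosen with earlier results of these data known. The design assumed CPM and its test was kept. Within cross A, log2(CPM + 0.5) was tested with limma 3.58.1 (R 4.3.3, trend, Benjamini-Hochberg adjustment) on the 6 lines alone, for contigs with at least 1 CPM in 2 lines, a filter that every member passes by the rule. edgeR 4.0.16 (quasi-likelihood, TMM) and DESeq2 1.42.0 were run on the recovered reads. The tests were first run on simulated data. Also tried were a pseudocount of 0.1 or 2, testing without a filter, all 12 libraries in 1 fit, other bounds for on, off and kept, 2 rescalings and each line left out.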

Additional observations from a re-analysis of the deposited data

Results flagged for a closer look

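In 61 groups of 6 lines (the members in cross A, and the locus sums in each cross), 5 held a line whose gap to the nearest other line was large for the range of the group. Chance gives this in about 1 of 20 groups, and the groups share contigs. S205 stood high in cross A for R_TRINITY_DN12839_c1_g1_i1 of AT1G68960, at 8.99 CPM with the other lines at 2.64 to 4.32 CPM. This contig is also the whole sum of its locus, so that sum stood apart too, at 8.99 CPM. S205 stood high as well for R_TRINITY_DN12839_c1_g4_i1 of AT4G15480, a contig of the same component, at 10.8 CPM with the others at 2.82 to 5.51 CPM. In cross B, SP9 stood high for the summed contigs of AT1G18265, at 13.7 CPM with the others at 7.97 to 9.32 CPM. RP6 stood low for the summed contigs of AT4G12010, at 0.445 CPM with the others at 0.641 to 0.732 CPM.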

How the results depend on the processing

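All 27 contigs were kept under both rescalings (to a column sum of 1000000, and by the median ratio). The 88 levels and ratios recomputed under the rescalings moved by less than 1 SD between lines. The rescalings shifted a library by at most 0.24 and 0.01 in log2, in that order. Means over lines could thus hardly move by the SD of single lines. The rule's bounds moved the counts. With a bound for on of 2 CPM there were 16 contigs on in cross A, and with 0.5 CPM there were 47, with 18 loci of kept sum in place of 9. With a bound for off of 0.5 CPM there were 5 contigs on in cross B. With the bound for a kept sum at 0.67 times the loci of kept sum numbered 7, and at 0.33 times 12. Leaving out 1 line gave 0 to 1 contigs on in cross B, 27 to 88 on in cross A and 9 to 28 loci of kept sum. The highest values of each were those without R206, and without S205 or S242 the loci of kept sum numbered 14. No locus had contigs of both directions in any run, which could not be otherwise in the runs with 0 contigs on in cross B.

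No member was called between resistant and susceptible cross A lines under any of 12 alternatives. The differences of the 3 members with the smallest p kept their sign in all 36 recomputed values (adjusted p 0.573 to 1 by limma, edgeR or DESeq2). These 3 were picked by p on the same cross A lines that the alternatives use again, so the kept sign is no separate support. Over all contigs, limma called 59 without R221, 36 without S205, 1 without S207 and 1 in the fit of all 12 libraries. At an unadjusted p under 0.05 by limma was 1 member without R206 and 1 without S207. The shares of all contigs tested were 3.67% and 2.09% there. With 3 lines a group, the lack of calls does not show equal levels. No paired analysis was possible because the replicate numbers only name the lines and pair no samples. Over all lines of both crosses 0.2 CPM stood for 20.0 to 30.6 reads, the fewest being those of R206 in cross A. The bound for off thus rests on few reads, so members with highest cross B values near it are the least sure.

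The comparison planned within cross B had no member to report, since no contig met the rule there.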

Other observations

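Contigs annotated to different Arabidopsis loci shared a component among the members in 3 components: S_TRINITY_DN13757 (AT4G19500, AT4G19510 and AT5G14930), S_TRINITY_DN2987 (AT3G55950 and AT5G06990) and R_TRINITY_DN12839 (AT4G15480 and AT1G68960). In S_TRINITY_DN13757 the member of AT5G14930 differs from the other members in the number after c. The 16 components of the members held 70 contigs, of which 43 were not members. In S_TRINITY_DN13635, beside the ArfGAP members, 3 contigs of the protein kinase locus AT5G07620 averaged 0, 0 and 0.002 CPM in cross B and 1.45 to 1.66 CPM in cross A, and each missed the rule by a lowest cross A value of 0.82 to 0.984 CPM. In R_TRINITY_DN12839, 9 contigs of a DUF239 protein with a c1_g2 name averaged 3.09 to 4.47 CPM in cross B and 7.54 to 9.04 CPM in cross A.

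Of the 61 contigs that would join the set without R206, 20 have loci on Arabidopsis chromosome 5, 15 on chromosome 1, 12 on chromosome 3, 10 on chromosome 2 and 4 on chromosome 4. Of the 27 members, S205 was the lowest cross A line for 11 and R202 for 6, and R221 was the highest for 8 and R202 for 7. No share over all contigs stands beside these counts. S205 had the highest column sum of cross A, 1180044, against 923295 for R221 and 935691 for R202, so nothing is read from them.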
